A study of Mus musculus with 9 samples.

Results

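Fatty acid oxidation genes are described here in MLE-12 mouse lung epithelial cells: 29 genes, chosen by symbol, of the 21950 genes in the deposited expression table. They are 4 genes of the carnitine shuttle, 5 acyl-CoA dehydrogenases, 6 genes of the later mitochondrial steps, 4 auxiliary enzymes for unsaturated fatty acids, 3 of electron transfer flavoprotein and its oxidoreductase, 3 of peroxisomal oxidation and 4 regulators. Each of the 29 symbols stood for 1 gene in the table. They were listed by function, with no threshold on a measured value. MLE-12 is an epithelial line from lung tumours of SP-C/TAg transgenic mice, in which a viral T antigen is driven by the promoter of surfactant protein C, so the cells of every group carry this transgene. At passage 17, in DMEM with 10% FBS, 3 samples were given extracellular vesicles, membrane particles shed by cells, that were taken from the bronchoalveolar lavage of syndecan-1 deficient mice after bleomycin injury. Another 3 were given such vesicles of injured wild-type mice, and 3 controls had regular medium. The groups are called syndecan-1 deficient vesicles, wild-type vesicles and control, and names such as wild-type replicate 3 refer to single libraries. Vesicle dose, exposure time, the number and age of donors and what D21 stands for in the sample names are not given in the sources used here, and no group had vesicles of uninjured mice. The labels do not say that the 3 samples of a group came from separate cultures, so p-values measure the spread between these samples, which may be technical.

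Fatty acid oxidation shortens fatty acids by removing acetyl units. Acyl-CoA enters mitochondria through the carnitine shuttle: Cpt1a or Cpt1b in the outer membrane makes acylcarnitine, Slc25a20 carries it across the inner membrane, and Cpt2 turns it back into acyl-CoA. Each cycle then runs through an acyl-CoA dehydrogenase, a hydratase, a hydroxyacyl-CoA dehydrogenase and a thiolase, with electrons passed on by electron transfer flavoprotein, while peroxisomes shorten very long and branched chains. The nuclear receptor PPARα, encoded by Ppara, and the coactivator PGC-1α, encoded by Ppargc1a, switch on many of these genes in liver, muscle and brown fat. Alveolar type 2 cells of the lung, which the line models, both make and oxidise fatty acids.

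Shown are the sequences before the RefSeq starts of 3 members and between a further pair. These members gave the largest difference (Ppargc1a), the largest enzyme difference (Cpt1a), the largest decrease (Echs1) and a head-to-head arrangement (Hadha and Hadhb). The sequences come from RefSeq promoter windows on GRCm38.p6, which held 24 of the 29 members, with bases of annotated exons left out. They run 5′ to 3′ on the gene's strand, and on the plus strand between Hadha and Hadhb. The Cpt1a stretch lies before its RefSeq start but inside the gene as annotated by GENCODE, which begins at chr19:3322334. Capitals mark AGGTCA, the half-site that nuclear receptors such as PPARα bind, on either strand, so TGACCT is the same motif read on the opposite strand. The stretches are chr5:51567727-51567975 (minus strand) for Ppargc1a, chr19:3323051-3323284 (plus strand) for Cpt1a, chr7:140116477-140116671 (minus strand) for Echs1 and chr5:30155163-30155247 between the starts of Hadha and Hadhb.
Ppargc1a: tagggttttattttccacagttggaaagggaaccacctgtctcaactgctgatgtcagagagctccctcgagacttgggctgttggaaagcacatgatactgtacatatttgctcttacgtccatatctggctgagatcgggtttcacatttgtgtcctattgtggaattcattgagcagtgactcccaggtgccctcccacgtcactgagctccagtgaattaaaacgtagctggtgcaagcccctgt
Cpt1a: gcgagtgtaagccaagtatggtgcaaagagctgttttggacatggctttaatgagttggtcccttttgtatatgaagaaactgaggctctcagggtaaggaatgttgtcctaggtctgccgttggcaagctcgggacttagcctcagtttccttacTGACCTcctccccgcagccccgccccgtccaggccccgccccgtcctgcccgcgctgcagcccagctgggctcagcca
Echs1: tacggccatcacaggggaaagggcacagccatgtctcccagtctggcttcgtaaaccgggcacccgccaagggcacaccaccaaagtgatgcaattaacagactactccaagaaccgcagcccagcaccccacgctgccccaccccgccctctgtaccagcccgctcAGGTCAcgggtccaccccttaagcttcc
Hadha to Hadhb: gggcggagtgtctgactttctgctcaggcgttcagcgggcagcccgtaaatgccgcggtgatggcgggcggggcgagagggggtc

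Of 24 member windows of 250 bases before the start, 4 held AGGTCA on either strand (Acadm, Acadvl, Cpt1a and Echs1), against 14.0% of all 32851 windows. The motif begins 94 bases before the RefSeq start in Cpt1a and 83 bases before it in Echs1. Its part in the levels of these genes was not tested. The palindromic element of NRF1, a factor of mitochondrial biogenesis, was in 3 windows (Etfb, Etfdh and Ppara), against 3.74% of all windows. The windows precede RefSeq starts, and those of Etfdh and Ppara lie inside the genes as annotated by GENCODE. All 250 bases of the Etfdh window are exonic, and an exon of Ppara overlaps 83 bases of its window. TGACGTCA, the full cAMP response element, was in 0 of 24 windows (1.55% of all), CACGTG in 0 (6.02% of all) and the PPAR element, a direct repeat of AGGTCA spaced by 1 base, in 0 (0.0335% of all). TCAAGGTCA, bound by oestrogen-related receptors, was in 0 as well (0.387% of all) and contains AGGTCA, as does the direct repeat. These are descriptions of letters in a short window.

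The values are RPKM, in which the reads of a gene are divided by its length and by the size of the library. Library totals recovered from the values lay between 24353257 and 33558660 reads. Among the libraries, wild-type replicate 3 stood apart from its group on the second principal component of the tested genes (10.2% of the variance): it lay at -2.41, against 14.4 and 17.2 for the other wild-type libraries and -13.3 to -6.82 for the deficient ones. The 13 mitochondrially encoded genes held 12.5 to 13.0% of summed RPKM with deficient vesicles, 12.9 to 14.9% with wild-type vesicles and 8.22 to 8.64% in control, and RPKM is relative to the library total, so a larger share for these genes leaves a smaller one for all others. Of 11 markers of alveolar type 2 cells, 7 averaged at least 1 RPKM, among them Sftpc, Sftpb and Nkx2-1, while Lamp3 and Slc34a2 were below 0.05 RPKM in each group mean. These markers summed to 193 to 209 RPKM with deficient vesicles, 188 to 209.7 RPKM with wild-type vesicles and 97.2 to 98.6 RPKM in control; 6 of the 7 rose with each preparation, Sftpa1 passing the filter only through the treated groups, and Etv5 fell by 1.01 and 0.94. The 6 epithelial markers summed to 341 to 378, 345 to 399 and 1029 to 1074 RPKM in the same order of groups. Almost all of that was Krt19, which fell by 1.90 with deficient and 1.94 with wild-type vesicles, and Krt8, which fell by 1.05 and 0.91; Epcam and Cldn4 were listed at 0 in all 9 libraries. The summed RPKM of 10 macrophage markers was 2.48 to 3.10 with deficient vesicles, 2.14 to 2.58 with wild-type vesicles and 2.83 to 2.97 in control, with Marco and Siglecf at 0 in all libraries; that of 7 lymphocyte markers was at most 0.290. The 6 neutrophil markers summed to 0.937 to 1.88, 1.18 to 1.60 and 1.04 to 1.43 RPKM in the same order. The 7 endothelial and erythroid markers summed to 14.3, 4.10 and 2.21 RPKM with deficient vesicles, replicate 1 standing apart, to 0.592 to 0.868 RPKM with wild-type vesicles and to 0.779 to 2.53 RPKM in control. Most of this was globin RNA, and Hbb-bs, which passed the filter only through the deficient group, was higher with deficient than with wild-type vesicles by 1.64 (adjusted p = 0.0379, limma; not called in 9 of the 16 alternatives that tested it). The 8 fibroblast markers summed to 791 to 917, 751 to 893 and 272 to 282 RPKM in the same order of groups. Dcn, most of that sum, rose by 2.00 with each preparation, and Col1a1, the next in level, fell by 0.78 and 0.76. The 6 adipocyte and muscle markers, of tissues rich in fatty acid oxidation, summed to 4.56 to 6.67, 4.19 to 5.21 and 2.14 to 2.51 RPKM, most of it Myh6, with group means of at most 0.0541 RPKM for Adipoq and 0.0578 RPKM for Ucp1. The part of these markers in the results was not tested, and in RNA of whole cultures a change in the number of cells of a type and a change of RNA per cell cannot be told apart.

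The members covered a wide range of levels. In cells with deficient vesicles Cpt1a was the highest at a mean of 63.0 RPKM, followed by Acadl at 61.8, Etfa at 60.2, Etfb at 56.0 and Acaa2 at 52.4 RPKM; in control cells Etfa led at 58.1 RPKM and Cpt1a stood at 30.1 RPKM. Recovered reads per library among the tested members ran between 34, the lowest library of Ppara, and 9057, the highest of Cpt1a. A filter of a mean of at least 1 RPKM over the 9 libraries kept 27 members and left out Ehhadh and Pdk4, the lowest. Ppara, with a mean of 1.015 RPKM, passed only through the vesicle-treated groups, so it had to differ from control. The 29 members together summed to 617 ± 8.63 RPKM with deficient vesicles, 617 ± 6.65 RPKM with wild-type vesicles and 529.6 ± 5.29 RPKM in control (SD, n = 3 each). The 6 treated libraries (608 to 625.5 RPKM) did not overlap the controls (526 to 536 RPKM). Such a sum weights high members such as Cpt1a most, and it depends on the scaling of the libraries. The median log2 difference of the 27 tested members was 0.15 with deficient and 0.19 with wild-type vesicles as deposited. It was -0.003 and 0.08 under the median-of-ratios factors given below. Without mitochondrially encoded genes in the library sums it was 0.27 and 0.29.

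**Figure D1:**
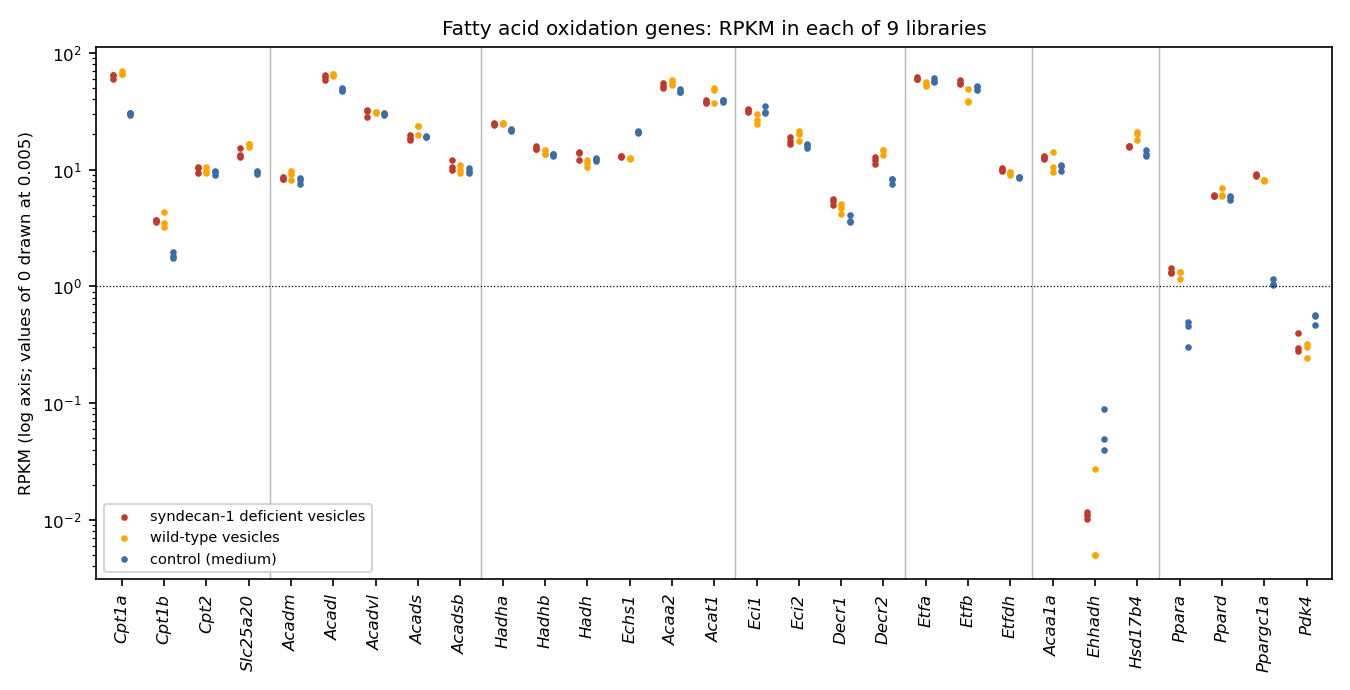
RPKM of the 29 members (log axis) in each library, by role from the carnitine shuttle on the left to the regulators on the right; red points are syndecan-1 deficient vesicles, orange wild-type vesicles and blue control, and the dotted line marks 1 RPKM. The separate position of the control points is plain for Cpt1a, Cpt1b, Slc25a20, Decr2, Echs1, Ppara and Ppargc1a, and Ehhadh and Pdk4 lie below the line in all libraries.

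With syndecan-1 deficient vesicles, 13 of 27 tested members rose, 1 fell and 13 were not called, at an adjusted p under 0.05 (limma on log2(RPKM + 1), Benjamini-Hochberg over 11125 genes). Of all tested genes 75.2% were called in this comparison, 48.8% higher and 26.5% lower. The median log2 difference of the 27 members was 0.15, against 0.13 for all tested genes. With wild-type vesicles, 14 rose, 3 fell and 10 were not called, where 75.1% of all tested genes were called, 45.0% higher and 30.0% lower; the median was 0.19 for the members and 0.09 for all tested genes. As shares, the members called higher were 48.1% with deficient and 51.9% with wild-type vesicles, close to the background, while those called lower were 3.7% and 11.1%, below it, and those called in either direction 51.9% and 63.0%, also below it. Ppara, which passed the filter only through the treated groups, is among the members called higher. Without it, 12 of 26 members were higher with deficient vesicles and 13 of 26 with wild-type vesicles. The description below turns on which members moved and how far. These comparisons share the control libraries. The groups did not overlap, upward, for 17 members with deficient vesicles (51.4% of all genes) and 16 with wild-type vesicles (46.9%); downward it was 1 member with deficient vesicles (29.5% of all genes) and 2 with wild-type vesicles (31.3%). Increases of at least 0.58 on the log2 scale were called for 4 members with deficient vesicles (17.2% of all genes) and 6 with wild-type vesicles (15.7%). Decreases of that size were called for 1 member in each (7.51% and 9.4% of all genes). Ppara, which had to differ by the filter, is included in the upward counts of groups without overlap and of increases of this size.

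The scaling of the libraries sets the split of calls. Median-of-ratios factors moved the median of all tested genes with deficient vesicles to -0.003, against 0.13 as deposited, and 8 members were then higher and 2 lower; with wild-type vesicles it was 9 higher and 5 lower at a median of all genes of -0.005. With mitochondrially encoded genes left out of the library sums, 23 members were higher and 1 lower with deficient vesicles, and 20 higher and 1 lower with wild-type vesicles. Over all genes, the higher share of the calls with deficient vesicles was 64.8% as deposited, 50.1% with median-of-ratios factors and 74.9% without mitochondrially encoded genes, and with wild-type vesicles 60.0% as deposited and 69.4% without mitochondrially encoded genes, with 4216 higher and 4211 lower under median-of-ratios factors. Calls of members against control that were lost under either scaling are named as such below.

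**Figure D2:**
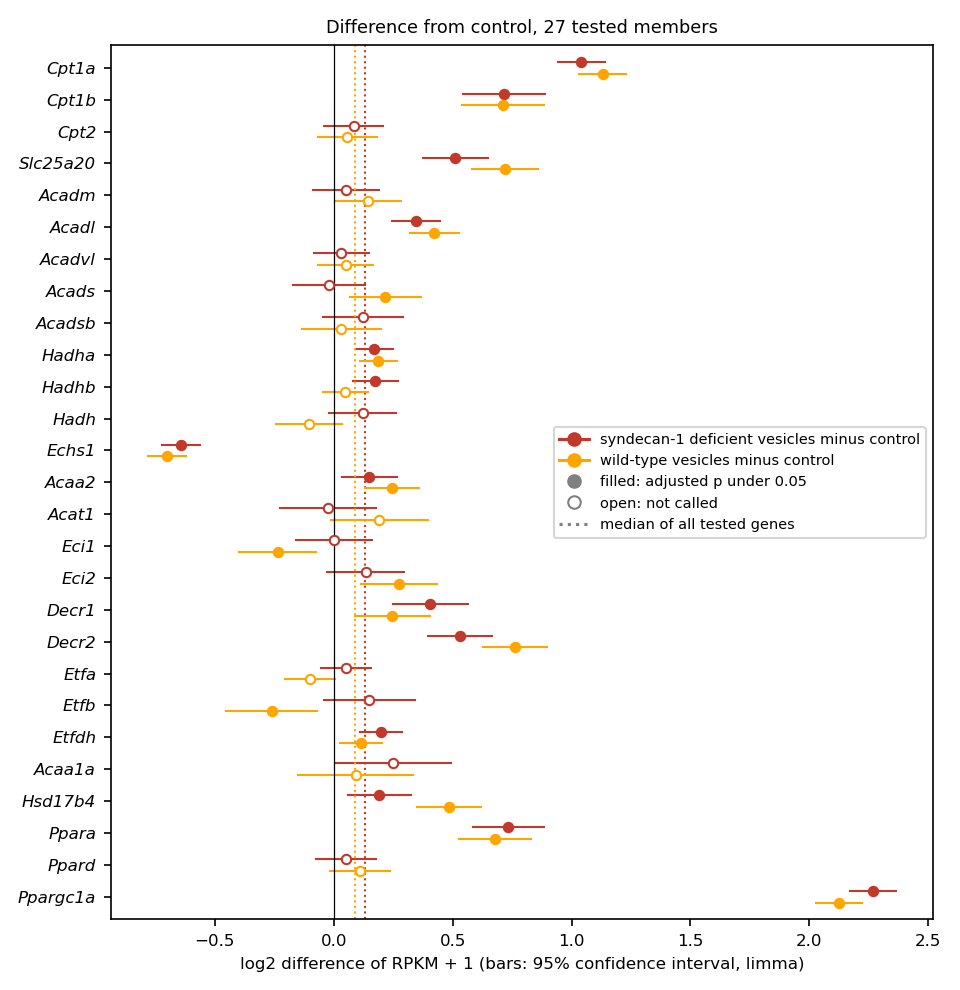
Difference from control of the 27 tested members on the log2(RPKM + 1) scale, with 95% confidence intervals; red is syndecan-1 deficient vesicles minus control and orange wild-type vesicles minus control, filled points are called, and the dotted lines mark the medians of all tested genes (0.13 and 0.09). Ppargc1a at 2.27 and 2.13 and Cpt1a at 1.04 and 1.13 lie far to the right, and Echs1 at -0.64 and -0.70 is the one member far to the left.

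Among the regulators, Ppargc1a had the largest difference of any member. The gene lies at chr5:51454250-51567726 (GRCm38, minus strand) and encodes PGC-1α, a coactivator of mitochondrial biogenesis and fatty acid oxidation. It stood at 8.74, 9.07 and 9.19 RPKM with deficient vesicles, at 7.92, 8.09 and 8.13 RPKM with wild-type vesicles, and at 1.03, 1.04 and 1.15 RPKM in control. No treated library overlapped the controls, and the deficient group lay wholly above the wild-type one. The mean was 8.37-fold that of control with deficient vesicles and 7.49-fold with wild-type vesicles, with log2 differences of 2.27 ± 0.043 (standard error; adjusted p = 3.7e-10) and 2.13 ± 0.043 (adjusted p = 4.78e-10, limma). The promoter letters printed above for this gene hold none of the 6 motifs searched.

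Ppara, the fatty acid-activated nuclear receptor at chr15:85734983-85802819 (plus strand), was low throughout. It had 1.45, 1.31 and 1.31 RPKM with deficient vesicles, 1.17, 1.32 and 1.32 RPKM with wild-type vesicles, and 0.302, 0.459 and 0.498 RPKM in control. The treated groups overlapped each other and neither overlapped the controls. The mean was 3.24-fold that of control with deficient vesicles (log2 difference 0.73 ± 0.068, adjusted p = 3.57e-06) and 3.02-fold with wild-type vesicles (0.68, adjusted p = 6.6e-06, limma). The log2 differences are small for the folds because 1 RPKM was added to each value. These tests follow a filter that Ppara passed only through the treated groups. In the fit without that filter the adjusted p was 1.18e-05 with deficient and 1.93e-05 with wild-type vesicles (limma). Ppard, the broadly expressed receptor of the same family, had 5.94 to 6.11 RPKM with deficient vesicles, 5.95 to 6.98 RPKM with wild-type vesicles and 5.55 to 5.91 RPKM in control, and was not called (log2 difference with deficient vesicles 0.05, 95% interval -0.08 to 0.18; with wild-type vesicles 0.11, interval -0.02 to 0.24). The ratio of Ppargc1a to Ppara RPKM was 6.65 ± 0.53 with deficient vesicles, 6.37 ± 0.374 with wild-type vesicles and 2.67 ± 0.66 in control.

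Pdk4, a pyruvate dehydrogenase kinase and a textbook target of PPARα, was lower in the treated libraries and stayed under the filter. Its recovered reads were 28, 31 and 46 with deficient vesicles, 21, 29 and 28 with wild-type vesicles, and 60, 66 and 41 in control, or 0.325 ± 0.0654, 0.291 ± 0.0402 and 0.533 ± 0.0575 RPKM. The treated values, at 0.246 to 0.400 RPKM, were all below those in control, at 0.467 to 0.571 RPKM. In the fit without a filter on low values Pdk4 had log2(RPKM + 1) differences of -0.21 with deficient vesicles (adjusted p = 0.00291) and -0.25 with wild-type vesicles (adjusted p = 0.00118, limma).

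In the carnitine shuttle 3 of 4 members rose with each preparation, and the summed RPKM of the shuttle was 90.6 ± 2.89 with deficient vesicles, 96.8 ± 3.75 with wild-type vesicles and 50.8 ± 0.596 in control. Cpt1a, the rate-limiting step of mitochondrial fatty acid entry, lies at chr19:3322334-3385733 (plus strand). It stood at 64.6, 60.0 and 64.2 RPKM with deficient vesicles, at 66.2, 69.7 and 65.3 RPKM with wild-type vesicles, and at 30.3, 30.3 and 29.6 RPKM in control. No treated library overlapped the controls. The mean was 2.09-fold that of control with deficient vesicles (log2 difference 1.04 ± 0.044, adjusted p = 1.52e-08) and 2.23-fold with wild-type vesicles (1.13, adjusted p = 1.03e-08, limma). Cpt1a and Ppargc1a were the members called at a log2 difference above 1 with each preparation.

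Cpt1b, the muscle form of the same enzyme, had 3.58, 3.73 and 3.69 RPKM with deficient vesicles, 3.48, 4.30 and 3.22 RPKM with wild-type vesicles and 1.77, 1.80 and 1.96 RPKM in control, again with no overlap with control. Its log2 differences were 0.72 ± 0.077 (adjusted p = 1.17e-05) and 0.71 (adjusted p = 1.24e-05, limma), but 78.59% of its 50-base sequences occur in the overlapping readthrough gene Gm44502, so its reads cannot be assigned with certainty. It made up 5.51% of the RPKM of Cpt1a plus Cpt1b with deficient vesicles, 5.17% with wild-type vesicles and 5.77% in control. Slc25a20, the carnitine-acylcarnitine carrier at chr9:108662088-108684641 (plus strand), had 15.5, 13.3 and 12.9 RPKM with deficient vesicles, 16.6, 16.5 and 15.5 RPKM with wild-type vesicles and 9.64, 9.15 and 9.51 RPKM in control. All treated libraries lay above the controls, and its log2 differences were 0.51 ± 0.062 (adjusted p = 2.74e-05) and 0.72 (adjusted p = 2.12e-06, limma).

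Cpt2, the last step of the shuttle, was not called. It had 9.43, 10.4 and 10.4 RPKM with deficient vesicles, 9.39, 10.6 and 9.72 RPKM with wild-type vesicles, and 9.56, 9.75 and 9.08 RPKM in control, and the groups overlapped. The log2 difference was 0.08 with deficient vesicles (95% interval -0.04 to 0.21) and 0.06 with wild-type vesicles (-0.07 to 0.18). The ratio of Cpt1a to Cpt2 RPKM was 6.26 ± 0.55 with deficient vesicles, 6.79 ± 0.231 with wild-type vesicles and 3.18 ± 0.0784 in control, and that of Cpt1a to Slc25a20 was 4.55 ± 0.395, 4.14 ± 0.139 and 3.19 ± 0.105 in the same order.

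**Figure D3:**
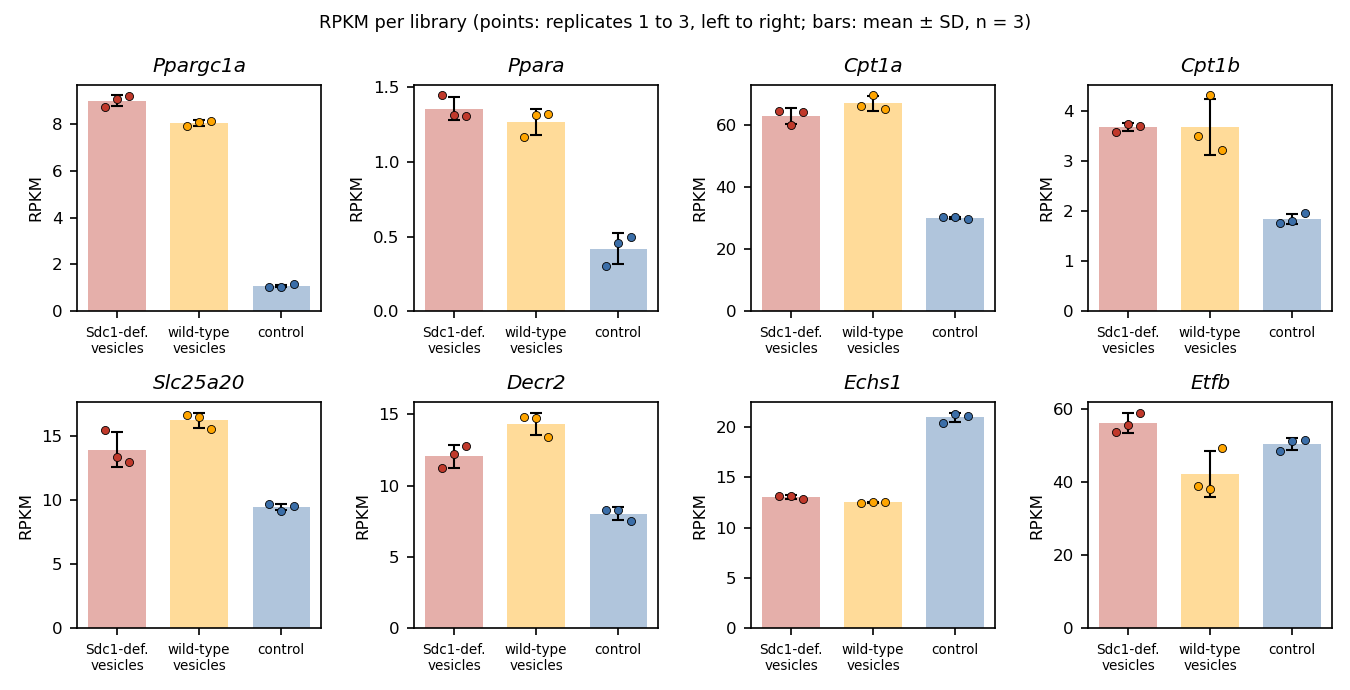
RPKM in each library for 8 members, with syndecan-1 deficient vesicles on the left, wild-type vesicles in the middle and control on the right; points are replicates 1 to 3, bars means and error lines the SD (n = 3). Treated and control points are apart for Ppargc1a, Ppara, Cpt1a, Cpt1b, Slc25a20 and Decr2 (treated higher) and Echs1 (treated lower), and for Etfb the wild-type bar is the lowest, at 42.2 RPKM, with replicate 3 at 49.4 RPKM.

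Acyl-CoA dehydrogenases catalyse the first step of each cycle on chains of different length, and 1 of 5 rose with deficient and 2 of 5 with wild-type vesicles. Under median-of-ratios factors 1 rose and 1 fell with deficient vesicles. Acadl, the long-chain enzyme at chr1:66830839-66863277 (minus strand), had 58.9, 64.6 and 61.8 RPKM with deficient vesicles, 66.4, 65.3 and 63.7 RPKM with wild-type vesicles, and 49.98, 46.9 and 48.2 RPKM in control, and no treated library overlapped the controls. The log2 differences were 0.35 ± 0.046 (adjusted p = 5.34e-05) and 0.42 (adjusted p = 1.2e-05, limma). Acads, the short-chain enzyme, rose with wild-type vesicles by 0.22 (adjusted p = 0.0139) and had a log2 difference of -0.02 with deficient vesicles (adjusted p = 0.797); its call was lost under median-of-ratios factors, and its libraries are given with the comparison of preparations. Acadm, for medium chains, averaged 8.38, 9.04 and 8.07 RPKM with deficient vesicles, wild-type vesicles and in control, and was not called with either preparation (0.05 and 0.14, adjusted p = 0.486 and 0.056). Acadsb, for branched chains, and Acadvl, for very long chains, had log2 differences between 0.03 and 0.12 and were not called. Acadvl turned to -0.12 with deficient vesicles under median-of-ratios factors (adjusted p = 0.0497 with 0.0323 to 0.884 as the lowest and highest of the alternatives), and 42.85% of its exonic bases are overlapped by Dvl2 on the opposite strand; whether counting used strand is not given in the sources used here.

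Of the 6 genes of the later mitochondrial steps, 3 rose and 1 fell with deficient vesicles, and 2 rose and 1 fell with wild-type vesicles; under median-of-ratios factors it was 0 and 1 with deficient vesicles and 1 and 2 with wild-type vesicles. Echs1, the short-chain enoyl-CoA hydratase at chr7:140105710-140116476 (minus strand), had 13.2, 13.2 and 12.9 RPKM with deficient vesicles, 12.4, 12.6 and 12.5 RPKM with wild-type vesicles, and 20.5, 21.4 and 21.1 RPKM in control. The treated libraries lay close together and all below the controls. The mean was 0.623 times that of control with deficient vesicles (log2 difference -0.64 ± 0.036, adjusted p = 9.1e-08) and 0.596 times with wild-type vesicles (-0.70, adjusted p = 4.88e-08, limma), and the call held in each of the 17 alternatives. Hadha and Hadhb encode the α and β chains of the trifunctional protein, which carries out the remaining steps on long chains, and start head to head from the 85 bases printed above. Hadha had 24.3 to 25.0 RPKM with deficient vesicles, 24.4 to 25.3 RPKM with wild-type vesicles and 21.5 to 22.1 RPKM in control, and rose by 0.17 (adjusted p = 0.00128) and 0.19 (adjusted p = 0.00069). Hadhb had 14.9, 15.9 and 15.2 RPKM with deficient vesicles, 13.7, 13.6 and 14.6 RPKM with wild-type vesicles and 13.5, 13.7 and 13.2 RPKM in control; it rose by 0.17 with deficient vesicles (adjusted p = 0.00366) and was not called with wild-type vesicles (0.05, adjusted p = 0.319). The difference of Hadhb between preparations missed the threshold (0.13, adjusted p = 0.0634, limma). The calls of Hadha and Hadhb were lost under median-of-ratios factors.

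Their ratio, Hadha over Hadhb, was 1.61 ± 0.0687 with deficient vesicles, 1.79 ± 0.0999 with wild-type vesicles and 1.62 ± 0.0246 in control. Acaa2, a thiolase, averaged 52.4 ± 2.75 RPKM with deficient vesicles, 56.0 ± 2.63 RPKM with wild-type vesicles and 47.1 ± 1.43 RPKM in control, and rose by 0.15 (adjusted p = 0.0228) and 0.24 (adjusted p = 0.00147, limma); with deficient vesicles it was at -0.003 under median-of-ratios factors. Acat1, the thiolase of ketone bodies and isoleucine, was 38.2 ± 1.01, 44.9 ± 6.93 and 38.9 ± 0.784 RPKM with deficient vesicles, wild-type vesicles and in control and was not called; its wild-type libraries stood at 47.9, 49.9 and 37.0 RPKM, replicate 3 being the low one. Hadh, the medium and short-chain hydroxyacyl-CoA dehydrogenase, was not called against control with either preparation (0.12 and -0.11, adjusted p = 0.104 and 0.152).

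Of the 4 auxiliary enzymes that handle double bonds, 2 rose with deficient vesicles, and 3 rose and 1 fell with wild-type vesicles, or 1 and 1 under median-of-ratios factors. Decr2, the peroxisomal dienoyl-CoA reductase at chr17:26081208-26090337 (minus strand), had 11.2, 12.2 and 12.8 RPKM with deficient vesicles, 14.8, 14.8 and 13.4 RPKM with wild-type vesicles, and 8.31, 8.32 and 7.49 RPKM in control. The 3 groups did not overlap one another. Its log2 differences were 0.53 ± 0.061 (adjusted p = 1.87e-05) and 0.76 (adjusted p = 1.25e-06, limma). Decr1, the mitochondrial reductase, averaged 5.32 ± 0.291, 4.67 ± 0.493 and 3.77 ± 0.28 RPKM with deficient vesicles, wild-type vesicles and in control, and rose by 0.41 (adjusted p = 0.000424) and 0.25 (adjusted p = 0.00958), the second call being lost under median-of-ratios factors. Eci1 and Eci2 encode enoyl-CoA isomerases: Eci1 fell by 0.24 with wild-type vesicles (adjusted p = 0.0127) and was at 0.0006 with deficient vesicles (adjusted p = 0.995), and Eci2 rose by 0.27 with wild-type vesicles (adjusted p = 0.00546) and was not called with deficient vesicles (0.13, adjusted p = 0.116). The call of Eci2 was lost under median-of-ratios factors. That of Eci1 was lost without mitochondrially encoded genes in the sums (-0.13, adjusted p = 0.12, limma).

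Electron transfer flavoprotein, the heterodimer of Etfa and Etfb, takes electrons from the dehydrogenases to Etfdh. The summed RPKM of the 3 genes was 126 ± 1.85 with deficient vesicles, 106 ± 8.72 with wild-type vesicles and 117 ± 3.52 in control. Etfdh rose by 0.20 with deficient vesicles (adjusted p = 0.000908) and 0.12 with wild-type vesicles (adjusted p = 0.021, limma), both lost under median-of-ratios factors. Etfa was not called (0.05 and -0.10, adjusted p = 0.358 and 0.0774). Etfb fell by 0.26 with wild-type vesicles (adjusted p = 0.0181) and was not called with deficient vesicles (0.15, adjusted p = 0.14). Its call with wild-type vesicles was lost without mitochondrially encoded genes in the sums (-0.16, adjusted p = 0.116, limma). Of its 50-base sequences, 44.81% occur in the overlapping gene Gm45233. The ratio of Etfa to Etfb was 1.08 ± 0.0783 with deficient vesicles, 1.30 ± 0.131 with wild-type vesicles and 1.15 ± 0.036 in control.

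Of the peroxisomal members, Hsd17b4, the multifunctional enzyme of the hydratase and dehydrogenase steps, rose by 0.19 with deficient vesicles (adjusted p = 0.0142) and 0.48 with wild-type vesicles (adjusted p = 3.41e-05, limma); the first call was lost under median-of-ratios factors. Acaa1a, a peroxisomal thiolase, averaged 12.7 ± 0.351, 11.4 ± 2.38 and 10.5 ± 0.672 RPKM with deficient vesicles, wild-type vesicles and in control and was not called (0.25, adjusted p = 0.0589 with deficient vesicles), with 17.06% of its sequence shared, mostly with its paralog Acaa1b. Ehhadh, the other peroxisomal multifunctional enzyme and a strong PPARα target in rodent liver, had 1, 1 and 1 reads with deficient vesicles, 2, 0 and 0 reads with wild-type vesicles, and 8, 5 and 3 reads in control. At sums of 3, 2 and 16 reads per group no fold is given.

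Between the preparations, 4 of 27 members were higher with syndecan-1 deficient than with wild-type vesicles, 4 were lower and 19 were not called, where 18.4% of all tested genes were called, 12.9% higher and 5.43% lower. The median difference was 0.005 for the members and 0.04 for all tested genes. The groups did not overlap for 8 members upward (21.1% of all genes) and 5 downward (11.2%). None of the 8 called members differed by as much as 0.58, a size reached by 0.656% of all genes upward and 0.431% downward. With median-of-ratios factors 1 was higher and 4 were lower, and the higher share of all calls was 49.2%, against 70.4% as deposited and 76.7% without mitochondrially encoded genes. None of the 8 calls held in every alternative: 14 members were called without wild-type replicate 3, and 0 on leaving out wild-type replicate 1 or 2 or deficient replicate 2 or 3. At an unadjusted p under 0.05 these 4 fits gave 10, 9, 10 and 12 members. Without control replicates 1, 2 or 3, which add only to the estimate of the spread, it was 2, 2 and 3 members, without deficient replicate 1 it was 5, and with the control group left out of the fit 0, with 10 at an unadjusted p under 0.05.

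Etfb had the largest difference and was higher with deficient vesicles. Its libraries stood at 53.6, 55.5 and 59.0 RPKM with deficient vesicles and at 39.0, 38.1 and 49.4 RPKM with wild-type vesicles, without overlap. Control libraries at 48.5, 51.2 and 51.6 RPKM lay below all deficient libraries and overlapped the wild-type group through its replicate 3. The log2 difference was 0.41 ± 0.086 (95% interval 0.22 to 0.60, adjusted p = 0.0258), and 0.53 without wild-type replicate 3. Eci1 had 32.1, 30.9 and 33.1 RPKM with deficient vesicles and 24.5, 26.9 and 29.9 RPKM with wild-type vesicles (0.24, adjusted p = 0.0481), against 30.9, 34.8 and 30.5 RPKM in control, so that the deficient and control groups overlapped. Hadh had 12.2, 14.0 and 14.3 RPKM with deficient vesicles and 10.6, 11.4 and 12.1 RPKM with wild-type vesicles (0.23, adjusted p = 0.0381, limma). Control values of Hadh, at 11.96, 12.4 and 12.5 RPKM, overlapped those of both preparations. Ppargc1a was the fourth member higher with deficient vesicles, by 0.14 ± 0.043 (interval 0.05 to 0.24, adjusted p = 0.0453), small beside its difference from control.

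Hsd17b4 was the member lowest with deficient relative to wild-type vesicles. It had 16.0, 16.0 and 15.6 RPKM with deficient vesicles, 20.8, 20.3 and 17.9 RPKM with wild-type vesicles, and 14.6, 13.2 and 13.5 RPKM in control, a log2 difference between preparations of -0.29 ± 0.060 (interval -0.43 to -0.16, adjusted p = 0.0258). All 3 groups were apart, with wild-type replicate 3 the lowest of its group. Acads had 17.9, 19.7 and 18.8 RPKM with deficient vesicles, 23.8, 23.6 and 19.7 RPKM with wild-type vesicles, and 18.9, 19.3 and 18.9 RPKM in control (-0.24, adjusted p = 0.0403); wild-type replicate 3 lay just above the highest deficient library. Decr2 differed by -0.23 (adjusted p = 0.0337) and Slc25a20 by -0.21 (adjusted p = 0.0442, limma), both higher than control with either preparation. In these 4 genes, as in Etfb, Eci1 and Hadh, wild-type replicate 3 was the wild-type library nearest to the deficient ones. Cpt1a (-0.09, interval -0.19 to 0.01), Cpt1b (0.01, -0.17 to 0.18), Ppara (0.06, -0.09 to 0.21) and Echs1 (0.06, -0.02 to 0.14) were not called between the preparations.

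**Figure D4:**
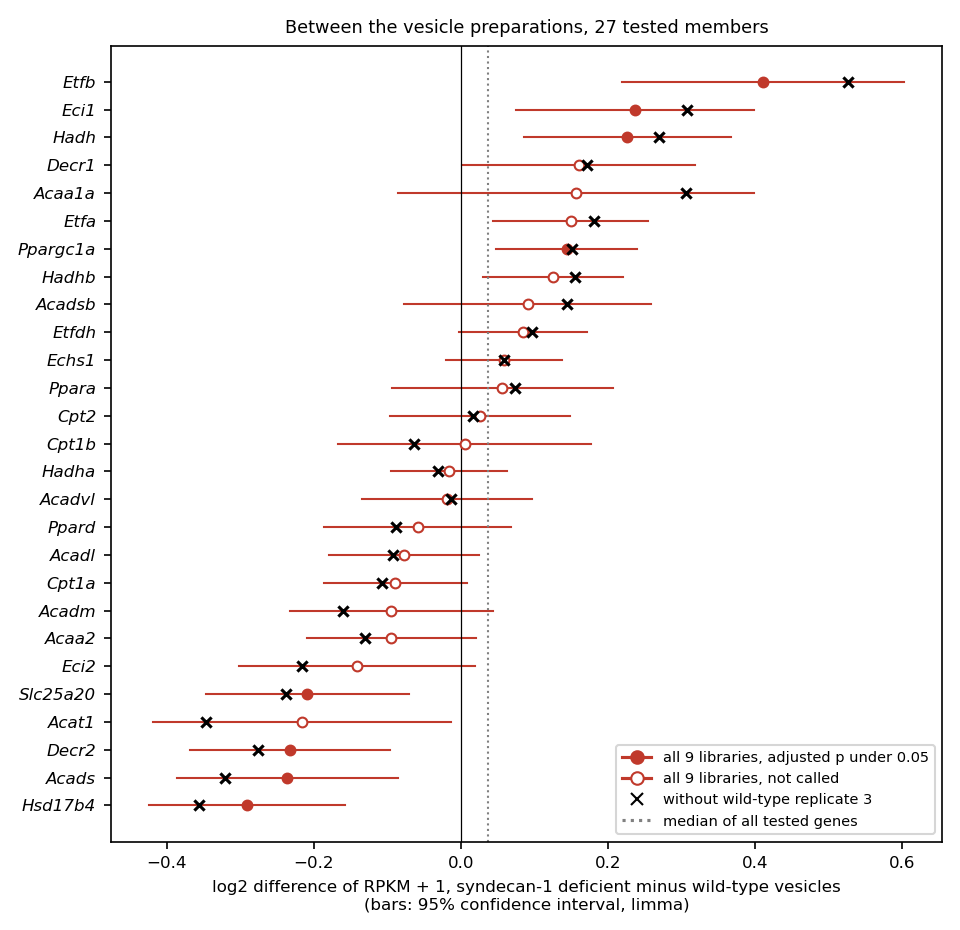
Difference between the preparations, syndecan-1 deficient minus wild-type vesicles, of the 27 tested members on the log2(RPKM + 1) scale with 95% confidence intervals, sorted by size; filled points are called with all 9 libraries, crosses are the values without wild-type replicate 3, and the dotted line is the median of all tested genes (0.04). Etfb at 0.41 and Hsd17b4 at -0.29 mark the ends, and for all 8 called members the cross lies farther from 0 than the point.

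Other genes of the pathway were read from 10 lists, given as counts in each direction. Acox2, Bdh2, Fabp3 and Plin4 passed the filter on low values only through the treated groups, as Ppara did, and had to differ; their part in the counts of their lists is 1 gene each. More genes were higher than lower with each preparation, under median-of-ratios factors and without mitochondrially encoded genes as well, in all of them except the other acyl-CoA enzymes, pyruvate oxidation and the citric acid cycle. All tested genes leaned the same way as deposited, with 48.8% higher and 26.5% lower with deficient vesicles. With wild-type vesicles these shares were 45.0% and 30.0%. For the nuclear receptors and coactivators the margin under median-of-ratios factors was small, 7 against 6 with deficient and 6 against 5 with wild-type vesicles. Among 10 tested genes of carnitine metabolism and malonyl-CoA control, 8 rose and 1 fell with deficient vesicles, and 7 rose and 1 fell with wild-type vesicles. Mlycd, which removes malonyl-CoA, the inhibitor of Cpt1a, averaged 8.66 ± 0.613 RPKM with deficient vesicles, 7.05 ± 0.669 with wild-type vesicles and 4.52 ± 0.323 in control (log2 differences 0.81 and 0.54, adjusted p = 2.93e-06 and 5.71e-05), and was higher with deficient vesicles by 0.26 (adjusted p = 0.0372, limma). Acacb and Acaca, which make malonyl-CoA, went differently. Acacb, under the filter and not tested, averaged 0.786 ± 0.0494, 0.895 ± 0.0126 and 0.107 ± 0.0177 RPKM in the same order. Its treated libraries all lay above the controls. Acaca was not called with deficient (-0.07, adjusted p = 0.131) or wild-type vesicles (-0.09, adjusted p = 0.0516, limma). The acyltransferase genes Crat, for acetyl groups, and Crot, for medium chains from peroxisomes, rose by 0.48 and 0.57 with deficient vesicles and by 0.62 and 0.38 with wild-type vesicles. Prkag2, a subunit of AMP-activated protein kinase, rose by 0.54 and 0.50, and Prkaa1, a catalytic subunit, fell by 0.17 (not called in 4 of 17 alternatives) and 0.37. Of 9 genes of fatty acid activation, 6 rose and 1 fell with deficient vesicles and 5 rose and 2 fell with wild-type vesicles. The acyl-CoA synthetase gene Acsl3 averaged 45.9 ± 2.02 RPKM with deficient vesicles, 45.4 ± 0.379 with wild-type vesicles and 19.1 ± 0.656 in control, and the transporter gene Slc27a1 9.62 ± 0.578, 10.6 ± 0.524 and 3.35 ± 0.129 RPKM. Acsl5, a mitochondrial and reticular synthetase, fell by 0.53 with deficient and 0.63 with wild-type vesicles, and Acss2, which activates acetate, rose by 0.79 and 0.99. Between the preparations Acsm3 and Acsl4 were higher with deficient vesicles, by 0.45 (adjusted p = 0.0255) and 0.25 (adjusted p = 0.0313, limma). Acsm3 passed the filter only through the deficient and control groups, so it had to be lower with wild-type vesicles. Its p-value follows that filter, and its fall with wild-type vesicles is among those counted in this list.

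Of 25 other acyl-CoA dehydrogenases and mitochondrial acyl-CoA enzymes, 12 rose and 5 fell with deficient vesicles, and 11 rose and 6 fell with wild-type vesicles, near the background. Under median-of-ratios factors it was 8 and 9 with deficient vesicles and 8 and 8 with wild-type vesicles. Acot2, a mitochondrial thioesterase, averaged 23.0 ± 1.5 RPKM with deficient vesicles, 20.2 ± 2.74 with wild-type vesicles and 9.33 ± 0.523 in control. Echdc3 rose by 0.96 and 1.01, Acad10 by 0.72 and 0.55, and Mecr, of mitochondrial fatty acid synthesis, fell by 0.52 and 0.45. Echdc1 and Acad9 were higher with deficient than with wild-type vesicles by 0.22 and 0.15 (adjusted p = 0.0311 and 0.0465). Among 30 peroxisomal genes, 20 rose and 4 fell with deficient vesicles, and 19 rose and 3 fell with wild-type vesicles, at medians of 0.31 and 0.25. Hacl1, of α-oxidation, averaged 4.33 ± 0.108, 4.52 ± 0.271 and 1.83 ± 0.153 RPKM with deficient vesicles, wild-type vesicles and in control, and Acox3, a branched-chain acyl-CoA oxidase, 4.96 ± 0.35, 5.06 ± 0.234 and 2.31 ± 0.0512 RPKM. The import gene Pex7 rose by 0.86 with deficient vesicles and by 0.60 with wild-type vesicles, and Pex7 and Pex6 were higher with deficient vesicles by 0.26 and 0.33 (adjusted p = 0.0337 and 0.0314). Of 5 genes of ketone body metabolism, 4 rose with deficient vesicles and the fifth, Oxct1, was not called (-0.0017, adjusted p = 0.977), and 4 rose and 1 fell with wild-type vesicles. Bdh2, a hydroxybutyrate dehydrogenase, averaged 3.04 ± 0.221, 3.60 ± 0.214 and 0.249 ± 0.0494 RPKM. Aacs, which activates acetoacetate, and the cytosolic thiolase gene Acat2 rose by 0.63 and 0.47 with deficient vesicles and by 0.59 and 0.38 with wild-type vesicles. Oxct1, which uses ketone bodies, fell by 0.16 with wild-type vesicles and was higher by 0.16 with deficient than with wild-type vesicles (adjusted p = 0.048, limma).

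Of 20 listed PPAR targets outside the members, 7 were tested, 6 of them rose with each preparation and 13, among them the liver and fat genes Cyp4a10, Cyp4a14, Fgf21 and Fabp1, were under the filter. Angptl4, also under it, averaged 0.652 ± 0.158 RPKM with deficient vesicles, 0.524 ± 0.0944 with wild-type vesicles and 0.714 ± 0.0804 in control. Its wild-type libraries all lay below the controls, and its deficient ones overlapped them. Pdk2, a pyruvate dehydrogenase kinase, averaged 12.9 ± 0.522 RPKM with deficient vesicles, 17.0 ± 3.11 with wild-type vesicles and 4.82 ± 0.23 in control (1.26 and 1.61, adjusted p = 1.82e-06 and 3e-07, limma), in the direction opposite to the low Pdk4. Tsc22d3, also a glucocorticoid target, rose by 1.19 and 0.96, the fatty acid-binding protein gene Fabp3 by 0.96 and 0.79, and the coenzyme A carrier gene Slc25a42 by 0.87 and 1.04. Among 19 nuclear receptors, coactivators and biogenesis factors, 11 rose and 5 fell with deficient vesicles, and 7 rose and 4 fell with wild-type vesicles. Lpin1, a lipin that acts with PGC-1α in mouse liver, averaged 4.20 ± 0.56, 4.42 ± 0.202 and 1.57 ± 0.0884 RPKM with deficient vesicles, wild-type vesicles and in control, and the corepressor gene Ncor1 rose as well, by 0.35 with deficient and by 0.56 with wild-type vesicles. Pparg, the remaining receptor of the PPAR family, fell: it averaged 8.92 ± 0.404 RPKM with deficient vesicles, 10.5 ± 1.37 with wild-type vesicles and 20.4 ± 1.14 in control (-1.11 and -0.90, adjusted p = 6.78e-07 and 3.09e-06). Pprc1, a relative of Ppargc1a, fell by 0.53 and 0.54, opposite in direction to Ppargc1a.

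In the citric acid cycle more genes fell than rose. Among its 18 genes, 2 rose and 8 fell with deficient vesicles, and 3 rose and 11 fell with wild-type vesicles, at medians of -0.08 and -0.18; with mitochondrially encoded genes left out of the sums it was 5 and 7 with each preparation, and the median with deficient vesicles was 0.04. Of 13 genes of pyruvate oxidation, 5 rose and 3 fell with deficient vesicles, turning to 4 and 8 under median-of-ratios factors, and 4 rose and 6 fell with wild-type vesicles, turning to 5 and 4 without mitochondrially encoded genes. Pdha1, the catalytic subunit of pyruvate dehydrogenase, averaged 43.0 ± 0.604 RPKM with deficient vesicles, 40.0 ± 0.314 with wild-type vesicles and 54.0 ± 0.805 in control, and Pdp1, the phosphatase that activates it, rose by 0.62 and 0.58. Pdk3 fell by 0.20 and 0.40 and was higher with deficient than with wild-type vesicles by 0.20 (adjusted p = 0.0289), while the pyruvate carrier gene Mpc1 was lower by 0.28 (adjusted p = 0.0283, limma). In the citric acid cycle, Cs, citrate synthase, averaged 91.8 ± 4.19, 89.2 ± 2.96 and 119 ± 2.99 RPKM with deficient vesicles, wild-type vesicles and in control. Suclg2 and Suclg1, of succinyl-CoA ligase, fell by 0.82 and 0.55 with deficient and by 0.83 and 0.45 with wild-type vesicles, and Dlst fell by 0.46 and 0.58. Idh3a fell by 0.17 with wild-type vesicles and was higher by 0.16 with deficient than with wild-type vesicles (adjusted p = 0.0344).

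Genes that supply fatty acids rose in most cases: of 14 genes of uptake, storage and synthesis, 12 rose and 1 fell with each preparation, at medians of 0.52 with deficient and 0.60 with wild-type vesicles. The lipid droplet genes Plin4 and Plin3 averaged 5.89 ± 0.249 and 73.0 ± 1.51 RPKM with deficient vesicles, 6.75 ± 0.426 and 69.5 ± 4.1 RPKM with wild-type vesicles, and 0.667 ± 0.0215 and 24.4 ± 0.531 RPKM in control. Cd36, a fatty acid transporter, averaged 159 ± 7.6, 154 ± 4.14 and 56.0 ± 1.37 RPKM in the same order. Lipe, hormone-sensitive lipase, rose by 1.38 and 1.37, and Pnpla2, the triglyceride lipase that acts before it, by 0.54 and 0.68, with a lower value by 0.14 with deficient than with wild-type vesicles (adjusted p = 0.0421, limma). The calls between preparations in these lists changed with single libraries and settings as those of the members did: of the 17 alternatives, Pnpla2 was not called in 13 and Acsm3 was not called or not tested in 7.

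**Figure D5:**
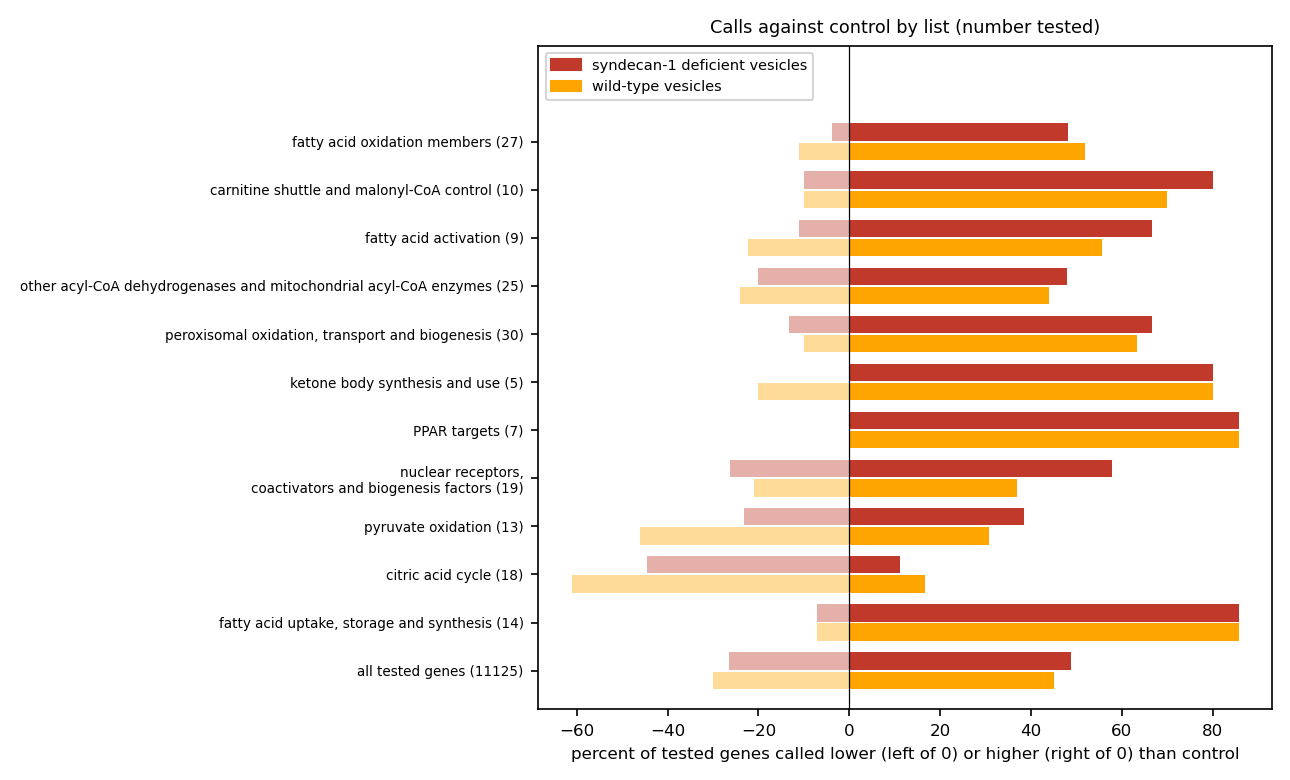
Percent of tested genes called higher (right of 0, full colour) or lower (left of 0, pale) than control, for the 27 tested members, 10 further lists and all 11125 tested genes; red is syndecan-1 deficient vesicles and orange wild-type vesicles, and the number tested stands in brackets. The members sit near all tested genes at the higher side and below them at the lower side, and the citric acid cycle has more genes lower than higher for both preparations.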

How the data were processed

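RNA was measured in 9 MLE-12 libraries, 3 per group; Trizol extraction and a TruSeq Stranded mRNA preparation were used, per the labels' protocols. The authors deposited 1 table of RPKM (reads scaled by gene length and library total) for 21950 genes, per the file headers; 0 value columns were left unused. TopHat2, version 2.0.7, and GRCm38 and mm10 as builds are named per the submitters' processing notes; the counter, its strand setting and the annotation release are not given in the sources used here. Control columns carry only the line's name and a number and were assigned by elimination.

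Genes were matched by identifier to GENCODE release M21 (21748 matched, 202 did not). Library totals (24353257 to 33558660 reads) and the members' reads were recovered from the steps between RPKM values. The reads of 12 members came out whole within 0.01 reads with the annotated length. For the rest of the 29 members, the smallest length that made the reads of every library whole was searched for and used. Their recovered reads rest on that length. Depth thus limits mainly Ehhadh, Pdk4 and Ppara. The share of 50-base sequences found in other genes was computed from GENCODE transcripts.

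The 11125 genes that averaged 1 RPKM or more were tested on log2(RPKM + 1), which understates changes of low genes, with limma (version 3.58.1, R 4.3.3; 1 fit of 3 groups, moderated statistics with a variance trend, no replicate block), tested first on simulated data. P-values of each of 3 contrasts were adjusted by Benjamini-Hochberg over all tested genes and called under 0.05. RPKM are not counts, so no count model was used. Errors after ± are the SD for RPKM and the standard error for log2 differences. The 17 alternatives change the pseudocount, the filter, the scaling, the fit, the variance trend or the block, or leave out 1 library. Members given by library are those called at a log2 difference of at least 0.58 or between preparations, and the shuttle, trifunctional protein and regulator genes; further lists give up to 4 genes with the smallest p against control and up to 2 called between preparations. Library values of Acadl and Acat1 were added after they were seen. The members and lists were chosen with earlier results of these data known. Promoter windows are from RefSeq on GRCm38.p6; windows of Cpt1b, Decr1, Hsd17b4, Acat1 and Acaa2 were not used here.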

Additional observations from a re-analysis of the deposited data

Results flagged for a closer look

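Acads, Eci1, Etfb and Hadh differed between the preparations while their differences from control had opposite signs. The difference itself, syndecan-1 deficient minus wild-type vesicles on the log2 scale, was -0.2362 for Acads, 0.2365 for Eci1, 0.4108 for Etfb and 0.2264 for Hadh. Against control, Etfb was at 0.15 with deficient and -0.26 with wild-type vesicles, Hadh at 0.12 and -0.11, Eci1 at 0.0006 and -0.24, and Acads at -0.02 and 0.22. In each of these genes wild-type replicate 3 was the wild-type library nearest to the deficient group, and without it the 4 differences were larger in size (-0.32 for Acads, 0.31 for Eci1, 0.53 for Etfb and 0.27 for Hadh). The part of Gm45233, which overlaps Etfb on the same strand, was not tested.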

How the results depend on the processing

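Against control, 6 of 14 members called with syndecan-1 deficient vesicles and 8 of 17 with wild-type vesicles were called in all 17 alternatives. Cpt1b and Ppara with both preparations, and Decr1 with deficient vesicles, were called in the 16 that tested them. Ppara passed the filter of 1 RPKM only through the treated groups. Leaving out 1 library gave 12 to 17 members and 7802 to 8875 genes with deficient vesicles, and 13 to 21 members and 7808 to 8643 genes with wild-type vesicles. Without mitochondrially encoded genes in the sums, 24 members were called with deficient vesicles. Under median-of-ratios factors 11 positive log2 differences with deficient vesicles and 5 with wild-type vesicles turned negative. Of the 11, Acaa2, called as deposited, went to -0.0027 (adjusted p = 0.969). Acadvl, not called as deposited, went to -0.1186 (adjusted p = 0.0497, limma). The other 9 were called neither as deposited nor under these factors. Acadvl was called in the opposite direction without mitochondrially encoded genes in the sums (0.149, adjusted p = 0.0323). It was also called higher without deficient replicate 1 (0.093, adjusted p = 0.0467, limma). The cause was not tested.

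Between preparations, 0 members and 1 gene were called without a low-value filter, 0 members and 0 genes in the fit of only these 2 groups, and 5 members under median-of-ratios factors. Unadjusted p under 0.05 held for 12 members and 4976 genes in the first of these fits and for 10 members and 3397 genes in the second. Leaving out 1 library gave 0 to 14 members and 0 to 4686 genes, the highest without wild-type replicate 3; the 0 came without wild-type replicate 1, wild-type replicate 2 or deficient replicate 2 (2851, 2818 and 3132 genes at an unadjusted p under 0.05), and 2 genes were called without deficient replicate 3. Without control replicates 1, 2 and 3 it was 733, 909 and 704 genes.

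Same-numbered libraries deviated from their group means with correlations of -0.196 to 0.285, so the numbers were not taken to pair them. With the replicate block 15 members were called with deficient vesicles, 18 with wild-type vesicles and 6 between preparations, and 8354, 8331 and 1681 genes.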
